A study of Mus musculus with 8 samples.

Results

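The transcripts of 10 blood stem cell niche factors were examined in mouse mesenchymal stem cells (MSCs) kept at low or atmospheric oxygen. The genes, chosen by name for their role in the niche, were Cxcl12, Kitl, Vcam1, Il7, Csf1, Lepr, Foxc1, Ebf1, Ebf3 and Tnfrsf11b, and all were found by symbol among the 53465 genes of the count table. All 10 passed the filter on low counts, as did 14369 genes in all. The MSCs came from the hind limb bones of C57BL/6N mice aged 3 to 5 months. Per the methods of the study, cells grown out of bone chips at 2% oxygen were sorted as negative for CD45 and Ter119 and positive for Sca-1 and CD140a, and the sorted population was then divided. One group stayed at 2% oxygen (hypoxia, 4 samples) and the other was moved to 21% oxygen (normoxia, 4 samples) for a week, so both groups share the hypoxic expansion. The labels place the sort on day 12 of culture. The question addressed here is whether the oxygen level under which MSCs are cultured alters the signals by which they sustain blood-forming cells.

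In the bone marrow, stromal cells around blood vessels keep haematopoietic stem cells in place and alive by secreting the chemokine CXCL12, which attracts cells bearing CXCR4, and KIT ligand (Kitl), which activates the receptor KIT. The same cells carry the leptin receptor (Lepr) and depend on the transcription factors FOXC1, EBF1 and EBF3, while IL-7 feeds B cell precursors, CSF1 feeds macrophages and osteoclast precursors, VCAM1 tethers blood cells through the integrin VLA-4, and osteoprotegerin (Tnfrsf11b) traps the osteoclast factor RANKL. Low oxygen acts on transcription mainly through the hypoxia-inducible factors (HIFs), which bind short hypoxia response elements in DNA.

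The RefSeq promoter table (GRCm38.p6) held windows for 7 of the 10 members. The 250 bases before the start site are shown for the most abundant pair of ligands and for Ebf3, chosen after their values were seen. In the comparison below that ignores sample numbers, the estimate was higher in normoxia for Csf1 and lower for Cxcl12 and Ebf3. Of these only Ebf3 passed the threshold there. Capitals mark a match to the core of the hypoxia response element, searched as ACGTG or GCGTG on both strands. The Cxcl12 window lies at chr6:117168285-117168534 on the plus strand, that of Csf1 at chr3:107760470-107760719 on the minus strand, and that of Ebf3 at chr7:137314446-137314695 on the minus strand, and all are written 5′ to 3′ on the strand of the gene.
Cxcl12: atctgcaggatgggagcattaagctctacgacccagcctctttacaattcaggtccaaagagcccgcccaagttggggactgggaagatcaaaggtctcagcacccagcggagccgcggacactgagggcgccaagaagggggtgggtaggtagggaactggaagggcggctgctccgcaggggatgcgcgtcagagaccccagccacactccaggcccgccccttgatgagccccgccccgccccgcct
Csf1: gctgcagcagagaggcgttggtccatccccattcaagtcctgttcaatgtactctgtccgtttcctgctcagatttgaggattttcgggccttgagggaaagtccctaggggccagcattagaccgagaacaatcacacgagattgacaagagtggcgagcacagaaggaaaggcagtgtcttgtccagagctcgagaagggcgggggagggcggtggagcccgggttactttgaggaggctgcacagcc
Ebf3: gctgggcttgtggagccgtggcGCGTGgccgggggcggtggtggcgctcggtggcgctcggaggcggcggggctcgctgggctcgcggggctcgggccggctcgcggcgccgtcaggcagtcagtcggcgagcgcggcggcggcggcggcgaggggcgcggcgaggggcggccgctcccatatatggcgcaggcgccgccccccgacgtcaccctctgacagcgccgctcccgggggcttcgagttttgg
The Ebf3 window held 1 core, 228 bases before the start site, and the windows of Cxcl12 and Csf1 held 0. Kitl, Foxc1 and the first window of Lepr also held 1 core each, 62, 191 and 44 bases before the start sites of their windows. In Kitl only the first 59 bases of the window precede the first exon in GENCODE. Its core therefore lies within the annotated span of the gene. Of 2 Ebf1 windows, the second held 3 cores. Over 32851 windows of the same length, 38.6% held a core, so a match is common.

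Csf1 and Cxcl12 were the most abundant niche transcripts in these cells. To compare genes, CPM (counts scaled to library size with TMM factors) were divided by the length of all annotated exons in kilobases. In hypoxia the mean level of Csf1 was 334 ± 40.0 CPM per kb (SD, n = 4), that of Cxcl12 was 181 ± 52.4 and that of Tnfrsf11b was 52.6 ± 23.7. Vcam1 followed at 23.7 ± 4.20, and then Foxc1 (11.3 ± 0.744), Ebf1 (10.2 ± 1.29) and Kitl (9.71 ± 1.27), whose neighbouring ranges overlapped. Ebf3 (2.71 ± 0.605) and Lepr (1.11 ± 0.688) also overlapped, and Il7 was lowest at 0.234 ± 0.106 CPM per kb. In normoxia Kitl stood above Foxc1 and Ebf1 without overlap, at 14.1 ± 1.49 against 10.1 ± 0.464 and 9.86 ± 1.54 CPM per kb, and the ranges of Cxcl12 and Tnfrsf11b met. Among all tested genes, the mean length-scaled level of Csf1 lay at the 99.3 percentile and that of Cxcl12 at the 98.3 percentile, whereas Lepr lay at 26.7 and Il7 at 7.68. The leptin receptor, which defines niche stroma in adult marrow, was thus a rare transcript in these cultured cells.

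**Figure D1:**
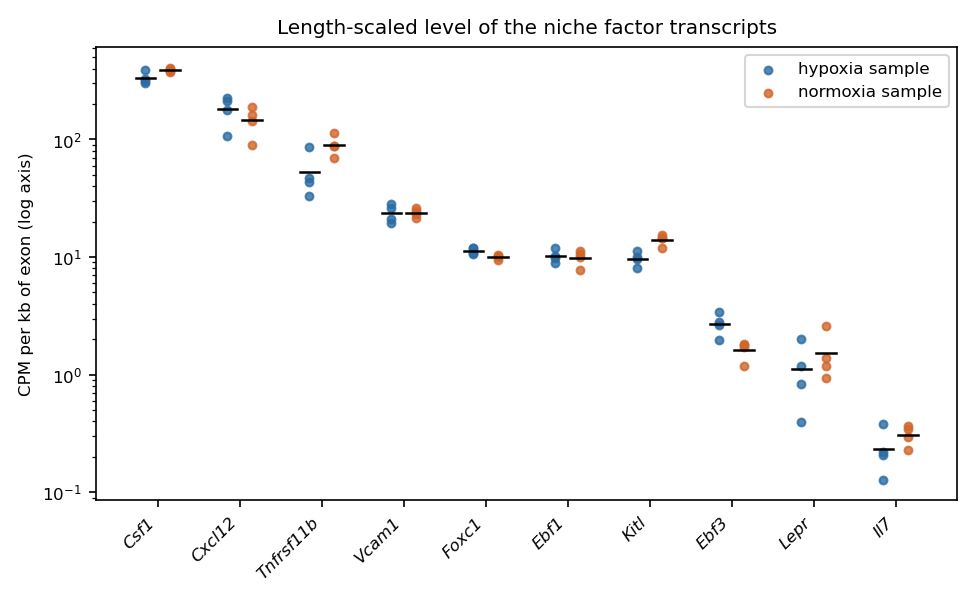
Level of each niche factor transcript in CPM per kb of exon on a log axis, with 1 point per sample (blue, hypoxia; orange, normoxia) and a black line at the mean of each group of 4. Csf1 and Cxcl12 lie at 89.6 CPM per kb or more in every sample, and Il7 at 0.381 or less.

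When oxygen levels were compared, 3 of the 10 members passed the threshold in the analysis that ignores sample numbers, namely Kitl and Tnfrsf11b, which rose in normoxia, and Ebf3, which fell (limma-trend, Benjamini-Hochberg adjusted p under 0.05). This share (30.0%) was no higher than that of all tested genes, of which 34.6% passed. When samples with the same number were treated as pairs, 7 members passed against 46.0% of all genes, since Csf1 and Lepr joined those higher in normoxia and Cxcl12 and Foxc1 joined those lower. Leaving out hypoxia replicate 1, the sample of the greatest depth, gave 5 calls without the pairing, adding Cxcl12 and Csf1, and 37.1% of all genes then passed. The median log2 change of the members (normoxia minus hypoxia) was 0.13 against 0.0049 over all tested genes. For Kitl, Ebf3 and Foxc1 the hypoxia and normoxia values did not overlap, as was the case for 32.6% of tested genes. The sign was the same in all 4 pairs for 6 members (Cxcl12, Kitl, Csf1, Foxc1, Ebf3 and Tnfrsf11b), against 54.5% of tested genes.

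**Figure D2:**
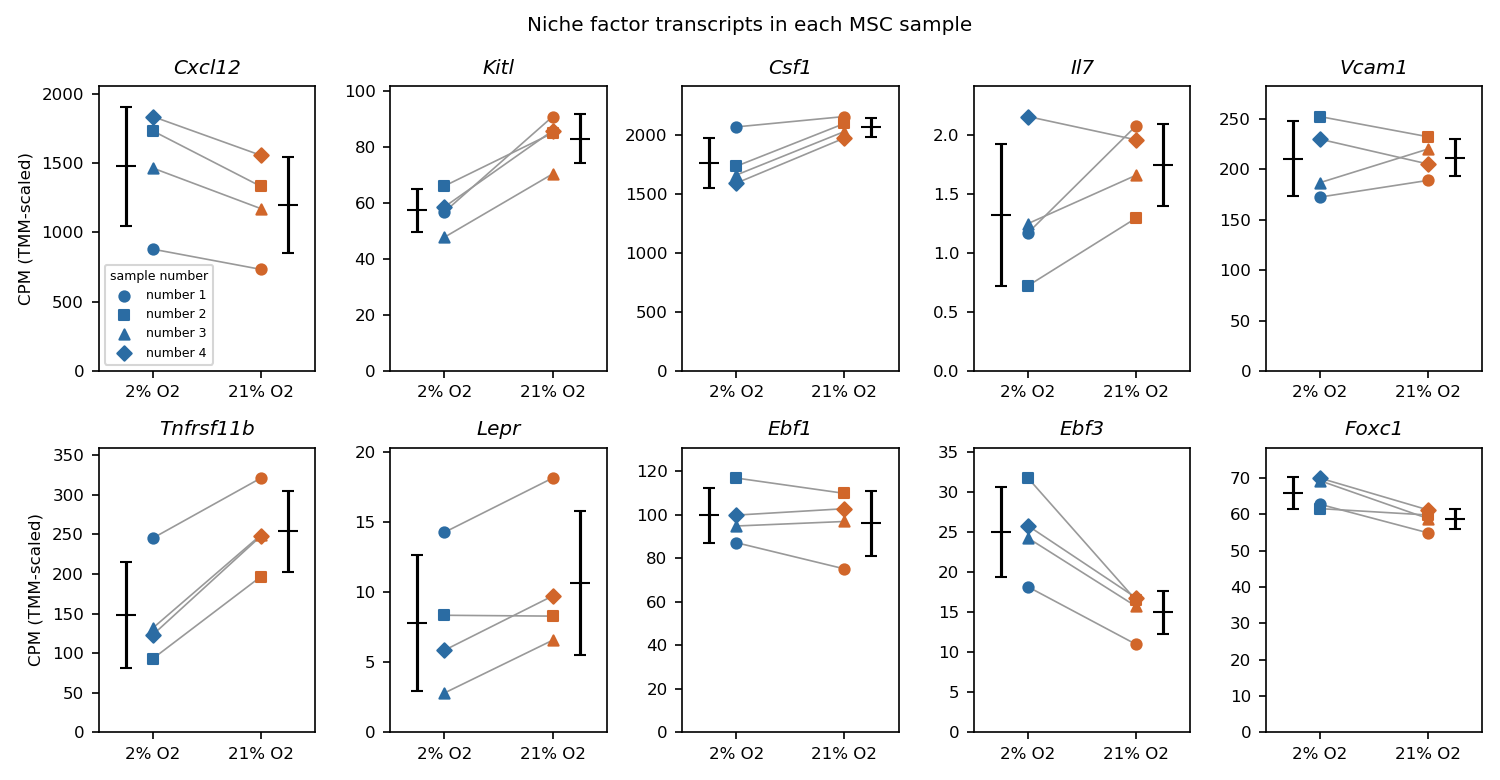
CPM of each niche factor in every sample at 2% and 21% oxygen, with axes starting at 0. Grey lines join samples with the same number, marker shape gives the number, and black bars give mean ± SD (n = 4). Lines slope up in 4 of 4 pairs for Kitl, Csf1 and Tnfrsf11b and down in 4 of 4 for Cxcl12, Ebf3 and Foxc1.

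The composition of the libraries also differed between the groups. Relative to the mean of all samples, the slope of log2 CPM against transcript GC content, for a rise of 10 percentage points, was 0.0737 to 0.180 in hypoxia and -0.140 to -0.0858 in normoxia. As the sign of the slope followed the oxygen level, a library effect and an oxygen response tied to GC content cannot be told apart. Values after removing the trends with GC content and transcript length, within the paired analysis, are therefore given beside the uncorrected ones below. Neither set is taken as the truer one. With this correction 8 members passed, against 43.2% of all genes. Of these, 4 were higher in normoxia (Kitl, Csf1, Lepr and Tnfrsf11b, against 21.7% of all genes) and 4 were lower (Cxcl12, Vcam1, Ebf1 and Ebf3, against 21.5%). Total counts ranged from 12898291 to 25132141 per sample, with hypoxia replicate 1 highest.

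Among the ligands, Kitl (ENSMUSG00000019966, chromosome 10, 100015630 to 100100416, GRCm38) rose in normoxia. Its levels in hypoxia replicates 1 to 4 were 56.9, 66.2, 47.9 and 58.7 CPM, and those in normoxia were 91.04, 85.1, 70.5 and 86.0 CPM. Every normoxia sample lay above every hypoxia sample, and the replicates numbered 3 were lowest in both groups. This 1.45-fold rise corresponds to a log2 change of 0.54 (standard error 0.10, limma-trend adjusted p = 0.0018). The Kitl transcript is poor in GC (39.3%), and with the pairing and the GC and length correction the log2 change was 0.30 (limma-trend adjusted p = 4.1e-05). Gene counts do not separate the soluble from the membrane-bound form of KIT ligand.

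Cxcl12 (ENSMUSG00000061353, chromosome 6, 117168535 to 117181367) differed more between samples of a group than between oxygen levels, yet was lower in normoxia within every pair. Its levels were 878, 1731, 1463 and 1835 CPM in hypoxia replicates 1 to 4, and 732, 1330, 1170 and 1555 CPM in normoxia. The order of the replicates was the same in both groups, with number 1 lowest and number 4 highest, and the groups overlapped. The log2 differences within pairs were -0.26, -0.38, -0.32 and -0.24. Without the pairing the log2 change of -0.30 had a standard error of 0.24 and did not pass (limma-trend adjusted p = 0.37). With the pairing the standard error was 0.050 and Cxcl12 passed (limma-trend adjusted p = 2.7e-05). The GC and length correction left the paired change at -0.30. When 1 sample was left out and numbers were ignored, the change ranged from -0.53 without hypoxia replicate 1 (limma-trend adjusted p = 0.044) to -0.095 without normoxia replicate 1 (adjusted p = 0.78), and the former was the only 1 of 8 such fits that passed. It was -0.21 without hypoxia replicate 2, -0.18 without hypoxia replicate 4 and -0.45 without normoxia replicate 4.

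Csf1 (ENSMUSG00000014599, chromosome 3, 107741048 to 107760469) was 2068, 1735, 1660 and 1591 CPM in hypoxia replicates 1 to 4, and 2156, 2097, 2029 and 1974 CPM in normoxia. Hypoxia replicate 1 alone reached the normoxia range, and normoxia was higher in 4 of 4 pairs. The log2 change of 0.23 (standard error 0.086) fell short of the threshold without the pairing (limma-trend adjusted p = 0.053) and passed with it (adjusted p = 0.0011). The GC and length correction gave 0.32, which passed without the pairing (limma-trend adjusted p = 0.018) and with it (1.3e-06). Without hypoxia replicate 1 it was 0.31 and passed without the pairing (limma-trend adjusted p = 0.0043). Il7 (ENSMUSG00000040329, chromosome 3, 7569994 to 7613760) rested on 9 to 28 counts per sample, with levels of 0.722 to 2.16 CPM in hypoxia and 1.30 to 2.08 CPM in normoxia. Its log2 change of 0.41 had a 95% interval from -0.19 to 1.02 (limma-trend adjusted p = 0.28). The paired change after the GC and length correction was 0.17 (adjusted p = 0.58), and no difference was detectable at these counts.

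The adhesion molecule Vcam1 (ENSMUSG00000027962, chromosome 3, 116109949 to 116129688) was 173 to 253 CPM in hypoxia and 189 to 233 CPM in normoxia. It was higher in normoxia in 2 pairs and lower in 2 pairs, and its log2 change was 0.022 with a 95% interval from -0.22 to 0.26 (limma-trend adjusted p = 0.90). The correction for GC content and length turned this direction, giving -0.21. That change passed with the pairing (limma-trend adjusted p = 0.0010) and not without it (0.16), so no direction is given for Vcam1.

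Tnfrsf11b (ENSMUSG00000063727, chromosome 15, 54250619 to 54278484), the decoy receptor that keeps RANKL from the precursors of osteoclasts, rose in normoxia. Its levels were 245, 93.0, 132 and 123 CPM in hypoxia replicates 1 to 4, and 321, 197, 249.2 and 248 CPM in normoxia. Hypoxia replicate 1 lay within the normoxia range, the other hypoxia samples lay below it, and 4 of 4 pairs rose. This 1.80-fold rise corresponds to a log2 change of 0.85 (standard error 0.23, limma-trend adjusted p = 0.015). With the pairing and the GC and length correction the change was 0.67 (limma-trend adjusted p = 1.7e-09). The pair numbered 1 differed by 0.39 and the others by 0.92 to 1.08. With DESeq2, and with the GC and length correction but no pairing, Tnfrsf11b did not pass (adjusted p = 0.063 with DESeq2 and 0.051 with limma-trend).

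Its ligand Tnfsf11 (RANKL) rose as well, from 5.66 ± 0.361 to 14.8 ± 2.32 CPM (SD, n = 4 each), with a log2 change of 1.34 (limma-trend adjusted p = 6.0e-05). The ratio of Tnfrsf11b to Tnfsf11 counts, which does not depend on library scaling, was 44.1, 16.1, 25.2 and 20.2 in hypoxia replicates 1 to 4 and 21.0, 11.4, 16.8 and 21.2 in normoxia. It was lower in normoxia in 3 of 4 pairs and higher in the pair numbered 4. The groups overlapped, and decoy counts exceeded ligand counts at least 11.4 times in every sample.

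Lepr (ENSMUSG00000057722, chromosome 4, 101717404 to 101815352), the receptor for the fat hormone leptin, was the most variable member within groups. Its levels were 14.3, 8.34, 2.81 and 5.86 CPM in hypoxia replicates 1 to 4, and 18.1, 8.28, 6.57 and 9.72 CPM in normoxia. The replicates numbered 1 were highest and those numbered 3 lowest in both groups, which overlapped widely. Its log2 change of 0.55 had a standard error of 0.41 when sample numbers were ignored (limma-trend adjusted p = 0.33) and of 0.15 with the pairing (adjusted p = 0.0031). When 1 sample was left out, the unpaired change ranged from 0.15 without hypoxia replicate 3 to 0.91 without hypoxia replicate 1, was 0.25 without normoxia replicate 1, and passed in 0 of 8 fits. The pairs differed by 0.34, -0.010, 1.17 and 0.71, so the pair numbered 2 did not rise, and with the GC and length correction the paired change was 0.34 (limma-trend adjusted p = 0.040). Leprot, the neighbouring leptin receptor overlapping transcript, was 130 ± 5.82 CPM in hypoxia and 126 ± 8.59 CPM in normoxia (SD, n = 4 each) and did not pass. Leptin itself (Lep) had 0 counts in every sample, which allows up to 0.119 to 0.233 CPM.

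Of the transcription factors that maintain niche stroma, Ebf3 (ENSMUSG00000010476, chromosome 7, 137193673 to 137314445) fell in normoxia. It was 18.2, 31.8, 24.3 and 25.8 CPM in hypoxia replicates 1 to 4, and 11.0, 16.5, 15.7 and 16.8 CPM in normoxia. The groups did not overlap, and the replicates numbered 1 were lowest in both. The level in hypoxia was 1.65-fold that in normoxia, a log2 change of -0.72 (standard error 0.17, limma-trend adjusted p = 0.0061). The paired change after the GC and length correction was -0.76. The call was kept in all 17 other analyses, with log2 changes from -0.86 to -0.59 when 1 sample was left out.

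Its paralog Ebf1 (ENSMUSG00000057098, chromosome 11, 44617317 to 45008091) was 87.2 to 117 CPM in hypoxia and 75.2 to 110 CPM in normoxia. Its log2 change of -0.058 had a 95% interval from -0.31 to 0.19 (limma-trend adjusted p = 0.74). Corrected for GC content and length it was -0.25, which passed with the pairing (limma-trend adjusted p = 0.00012) and not without it (0.11). Of the length-scaled level summed over Ebf1, Ebf2, Ebf3 and Ebf4, Ebf3 made up 16.9% to 20.8% in the hypoxia samples and 12.4% to 13.9% in the normoxia samples, and Ebf1 made up 70.2% to 76.7% and 78.8% to 81.3%. Foxc1 (ENSMUSG00000050295, chromosome 13, 31806633 to 31812476) varied least of the members in hypoxia, at 61.6 to 70.0 CPM in hypoxia and 55.0 to 61.3 CPM in normoxia. Its log2 change of -0.17 did not pass without the pairing (limma-trend adjusted p = 0.070), passed with it (0.025), and was -0.046 with the pairing and the GC and length correction (adjusted p = 0.54).

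**Figure D3:**
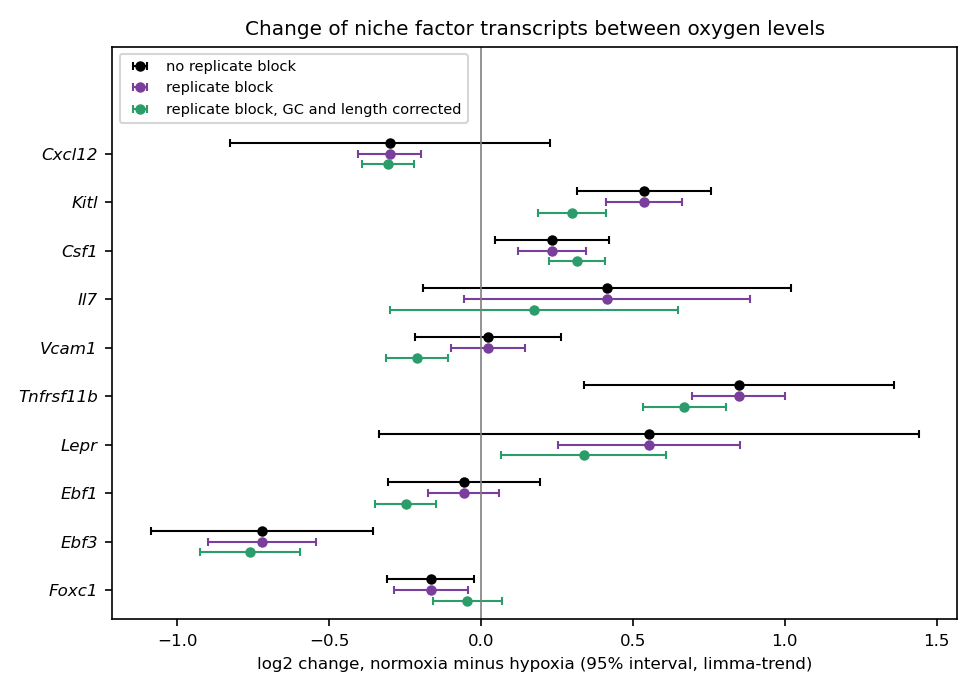
Log2 change of each niche factor (normoxia minus hypoxia) with its 95% interval from limma-trend, without the replicate block (black), with it (purple), and with it after correction for GC content and length (green). The intervals of Cxcl12 and Lepr shrink with the block and no longer reach 0, and the estimate for Vcam1 moves from 0.022 to -0.21 with the correction.

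Samples with the same number shared the highest or lowest value for many members. The replicates numbered 1 were lowest in both groups for Cxcl12, Vcam1, Ebf1 and Ebf3 and highest in both for Csf1, Lepr and Tnfrsf11b, which makes 7 of 10 members at an extreme. Over all tested genes, 15.7% were highest and 13.7% lowest in both samples numbered 1. The range within a group was 1.06 log2 units in hypoxia and 1.09 in normoxia for Cxcl12, against 0.18 and 0.16 for Foxc1.

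For the members called without the pairing, the genes with the nearest log2 CPM profile over the 8 samples were found by the root mean square difference of centred values, among genes with a mean log2 CPM of at least 3. Kitl was nearest to Fbxo9 and Mphosph8, at 0.076 and 0.078 log2 units, against its own root mean square deviation of 0.31. Ebf3 was nearest to Nkd1 and Slc9a9, at 0.10 each against 0.45. Tnfrsf11b was nearest to Ndc80 and Dlgap5, at 0.14 and 0.15 against 0.58.

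Other factors by which stroma supports or restrains blood cells were then compared. Of 27 further secreted and surface niche factors, 24 were tested, of which 9 rose in normoxia, 5 fell and 10 did not pass (limma-trend, 34.6% of all genes called). Their median log2 change was 0.21, and 0.079 in the paired analysis with the GC and length correction. That analysis called 70.8% of them against 43.2% of all genes. It gave 11 higher and 6 lower, where 21.7% and 21.5% of all genes were called. Il6, a cytokine that drives myeloid output, was nearly absent in hypoxia with 18, 2, 8 and 2 counts and had 53, 36, 57 and 26 counts in normoxia. Its log2 change was 2.50 on the moderated scale (limma-trend adjusted p = 0.00041). Il6 passed the filter only through its normoxia samples, as hypoxia replicates 2 and 4 lay under the minimum count of 5. Lif, a cytokine of the same family, changed by 1.16, and the monocyte chemokine Ccl2 by 1.16, from 21.5 ± 8.42 to 45.5 ± 3.68 CPM (SD, n = 4 each). In none of these 3 genes did the groups overlap, and no overlap was seen for 32.6% of all tested genes. The 3 were named for the size of their change.
The 5 factors that fell were Mdk, Flt3l, Tgfb1, Clec11a and Slit3, of which all but Mdk were named after their values were seen. Mdk, which encodes the heparin-binding growth factor midkine, fell from 12.8 ± 2.18 to 4.94 ± 1.06 CPM (SD, n = 4 each), a log2 change of -1.35 (limma-trend adjusted p = 0.00018). Of the other 3 genes on this list, Csf2 had 0 counts in every sample, and Csf3 and Tnfsf13b did not pass the filter.

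**Figure D4:**
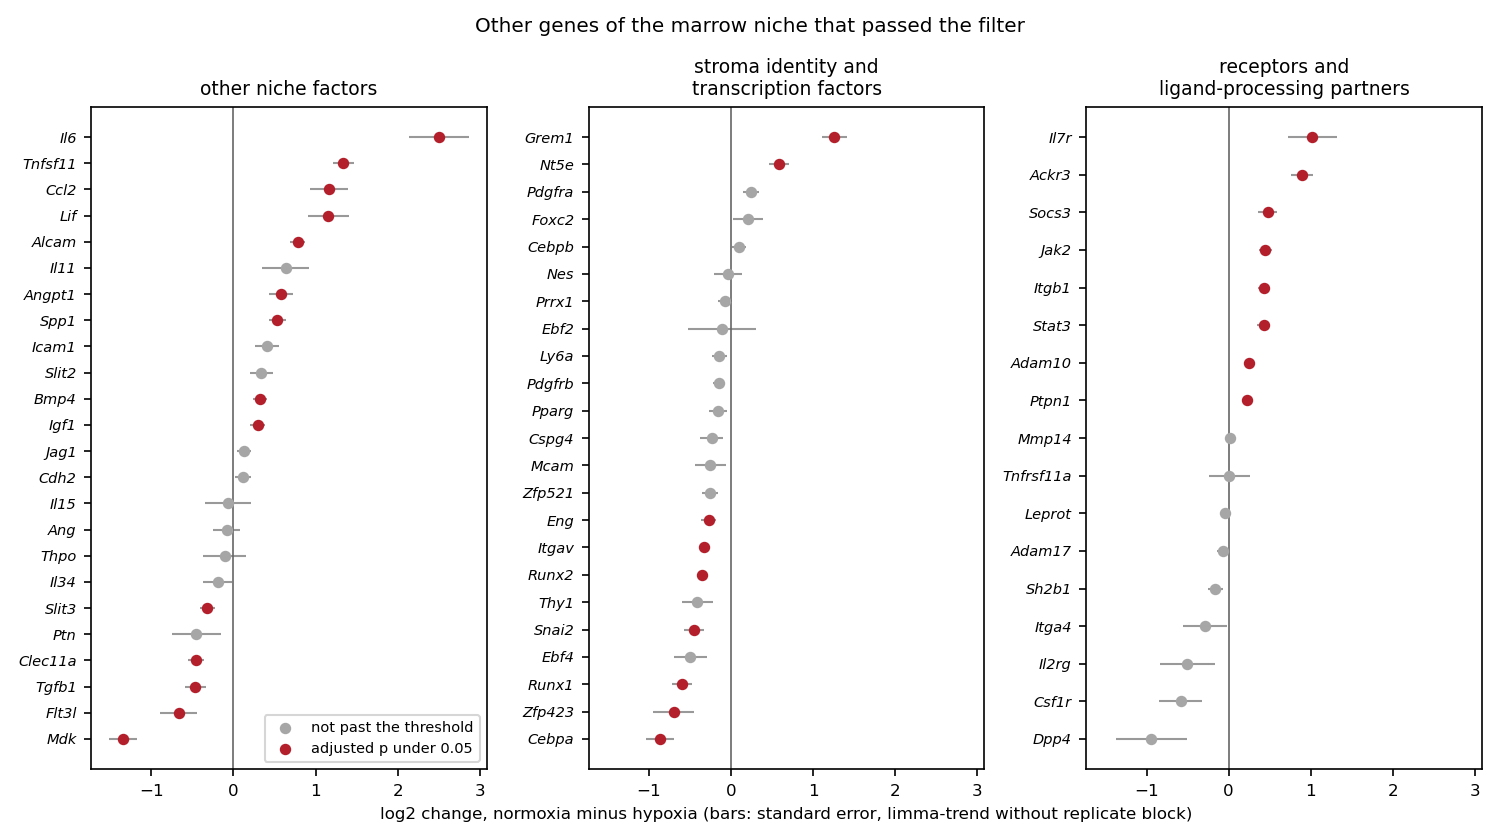
Log2 change (normoxia minus hypoxia, ± standard error) of every tested gene in the 3 lists of other niche genes, with red points for genes past the threshold without the replicate block. Il6 is the farthest right at 2.50 and Mdk the farthest left at -1.35.

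Among 23 genes of niche stroma identity and its transcription factors, 2 rose, 7 fell and 14 did not pass. The share called was 39.1%, against 34.6% of all genes, and the median log2 change was -0.24. Cebpa, a regulator of fat cell fate, fell by 0.87 on the log2 scale, Zfp423, a preadipocyte factor that interacts with EBF proteins, fell by 0.70, and Runx1 fell by 0.60 (limma-trend adjusted p = 0.0022, 0.046 and 0.0026). Grem1, a BMP antagonist expressed by skeletal stem cells, rose from 24.5 ± 4.34 to 59.0 ± 12.2 CPM (SD, n = 4 each), and Nt5e (CD73) had a log2 change of 0.59. With the pairing 15 of these genes (65.2%) passed, against 46.0% of all genes, with 3 higher and 12 lower in normoxia, where 22.7% of all genes were lower. The list includes Ly6a and Pdgfra, whose proteins were used for the sort, and neither passed without the pairing. With it Pdgfra was higher in normoxia (log2 change 0.24, limma-trend adjusted p = 0.00087) and Ly6a lower (-0.14, adjusted p = 0.021).

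Of 21 receptors, signalling partners and proteases of the niche factors, 17 were tested. Without the pairing 8 were higher in normoxia and 0 lower in limma-trend, 47.1% against 34.6% of all genes, and edgeR and DESeq2 gave the same numbers. At an unadjusted p under 0.05, 2 genes were lower in limma-trend and edgeR and 1 in DESeq2. The count of 0 did not hold in every analysis. It became 8 higher and 2 lower with the pairing, 7 and 4 with the pairing and the GC and length correction, and 6 and 1 with the correction alone. It was 8 and 3 without hypoxia replicate 1, 7 and 1 without hypoxia replicate 2, and 6 and 1 without normoxia replicate 3. The remaining alternatives, among them RLE or no normalization factors, no filter and a prior count of 1, kept 0 lower. The genes that rose most were Il7r and Ackr3. Il7r, with 3 to 7 counts in hypoxia and 8 to 17 in normoxia, had a log2 change of 1.02 (limma-trend adjusted p = 0.020). Like Il6, it passed the filter only through its normoxia samples. Ackr3, a scavenging receptor for CXCL12, went from 37.2 ± 5.89 to 69.9 ± 12.9 CPM (SD, n = 4 each), a log2 change of 0.90 (limma-trend adjusted p = 0.00046). Jak2 and Socs3, which act downstream of the leptin and interleukin receptors, had log2 changes of 0.45 and 0.47, and Itgb1, the beta chain of VLA-4, had one of 0.44. After the GC and length correction the paired changes were 0.28 for Jak2, 0.66 for Socs3 and 0.28 for Itgb1. Itga4, the alpha chain of VLA-4, went the other way, with a log2 change of -0.28 that did not pass (limma-trend adjusted p = 0.44). Its paired change after the correction was -0.47 (limma-trend adjusted p = 0.0044). Cxcr4 and Kit, the signalling receptors for CXCL12 and KIT ligand, had at most 12 and 9 counts and did not pass the filter. The median log2 change of the list was 0.013, against 0.0049 over all tested genes.

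The sorted cells were also checked for their identity and for other cells. All 10 mesenchymal markers were tested, and their summed level was 92150 to 101700 CPM in hypoxia and 65870 to 71890 CPM in normoxia. Col1a1, Col1a2 and Col3a1 made up most of this sum, as each other marker had a group mean of at most 593 CPM. In limma-trend 1 of these markers was higher in normoxia and 2 were lower, against 18% and 16.5% of all genes. With the pairing 3 were higher and 6 lower, against 23.3% and 22.7%. All 11 macrophage markers were present, with a summed level of 607 to 1268 CPM in hypoxia and 688 to 1324 CPM in normoxia, and Csf1r, the receptor for CSF1, was 168 ± 61.7 CPM in hypoxia and 111 ± 39.4 CPM in normoxia (SD, n = 4 each), a difference that passed with the pairing only (limma-trend adjusted p = 0.10 without it and 6.7e-09 with it). In limma-trend 1 of the 11 macrophage markers was higher and 1 lower, against 18% and 16.5% of all genes. With the pairing 1 was higher and 6 were lower, against 23.3% and 22.7% of all genes. The part of macrophages in the levels of Csf1, Vcam1, Ccl2, Cebpa, Runx1 and the other genes named was not tested. In a bulk sample fewer cells of a type and less RNA per cell cannot be told apart. Of 8 B lymphoid markers 0 were tested, with Cd79b, Pax5, Igll1 and Rag2 at 0 counts throughout, while Ebf1, which B cells also express, had at least 1012 counts in every sample. Summed levels were at most 0.539 CPM for B lymphoid markers, 0.231 CPM for erythroid markers and 5.31 CPM for endothelial markers, of which Emcn and Tie1 were at 0 and Pecam1 and Cdh5 had at most 3 counts. Osteoblast markers summed to 185 to 234 CPM in hypoxia and 111 to 168 CPM in normoxia, with Mepe at 0, and adipocyte markers summed to 37.1 to 85.4 and 60.0 to 146 CPM, with Cidec at 3 counts or fewer.

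Genes annotated on the opposite strand overlap Vcam1, Il7, Ebf1 and Ebf3. They had at most 5 counts in any sample, but whether the counting used strand is not stated.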

How the data were processed

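RNA was measured in 4 hypoxia-cultured and 4 normoxia-cultured samples of mouse MSCs. The authors sequenced single-end reads, processed them with zUMIs, STAR, samtools and featureCounts on mm10 (GRCm38) with Ensembl annotation, and deposited raw counts per gene, which are whole numbers and not normalized. Strand and multiple mapping settings were not given in the sources used here. Symbols and positions came from GENCODE M21 for 53274 of 53465 identifiers.

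The filter, test and threshold are those the study names. Genes were filtered with filterByExpr (minimum count 5) in edgeR 4.0.16, which kept 14369 genes with 99.9% of the counts, and compared with limma-trend (limma 3.58.1, R 4.3.3) at an adjusted p of 0.05. As its normalization is not given, TMM factors were chosen, and log2 CPM was taken with a prior count of 3, which shrinks changes at low counts. Fold values are powers of these changes. The fit covered all tested genes, and p-values were adjusted over all of them. Alternatives were the edgeR quasi-likelihood test, DESeq2 1.42.0, RLE or no normalization factors, no filter, a prior count of 1, a replicate block, a correction for transcript GC content and length (natural splines with 5 degrees of freedom, for the 14353 genes with a value), and leaving out each sample.

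The study divided sorted cells between oxygen levels, and the labels number samples 1 to 4 in both groups. Deviations from the group means correlated across genes by 0.47, 0.28, 0.25 and 0.17 for samples numbered 1 to 4. Between a hypoxia and a normoxia sample of unlike number the correlations were -0.22 to 0.076. Deviations within a group cancel out, so positive correlations at equal numbers lower those at unlike numbers, and part of this contrast is built in. The numbers were taken as pairs, which the labels do not state. Total counts of 12898291 to 25132141 make 3 counts equal to 0.119 to 0.233 CPM, a floor that covers counting error only. The study calls the replicates biologically independent, and the labels do not say which animals they came from. The tests were tested on simulated data, where the fit with the replicate block gave a larger share of false calls than the fit without it. The simulated samples held no resemblance between equal numbers. The simulation therefore cannot tell how many of the paired calls in these data are false.

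The members and the lists were chosen with earlier results of these data known. The genes named are the members, up to 5 genes with the largest change among those called in each other list, the 2 genes nearest in profile to each called member, and the markers. Others named were chosen after their values were seen.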

Additional observations from a re-analysis of the deposited data

Results flagged for a closer look

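In 22 sets of 4 values (each member and the total count in each group), the gap between an extreme sample and its nearest neighbour was divided by the range and compared with Dixon's 95% critical value. Chance gives about 1 in 20 such sets, or 1.1, and 2 were found.

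Ebf3 in normoxia replicate 1 was 3.48 log2 CPM against 3.99 to 4.09 in the other normoxia samples, with a ratio of 0.844. The hypoxia sample of the same number was also the lowest of its group for Ebf3, and the pair differed by -0.72, within the range of the other pairs (-0.94 to -0.61). Hypoxia replicate 1 also held 25132141 counts in all, whereas the remaining hypoxia samples held 12929564 to 13219647, which makes the ratio 0.976.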

How the results depend on the processing

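The calls for Kitl and Ebf3 were kept in all 17 alternatives. The replicate block raised the members called from 3 to 7 and the stroma identity and transcription factor genes called from 9 to 15, and the block with the GC and length correction gave 8 and 16. Leaving out 1 sample gave 3 to 5 members. Vcam1 reversed sign with DESeq2 (-0.00033), with the GC and length correction with or without the block (-0.21), and in some fits without 1 sample (range -0.068 to 0.12). Ebf1 reversed with no normalization factors (0.031) and without 1 sample (range -0.14 to 0.043). The cause was not tested. Total counts without normalization factors moved the share of calls that were higher in normoxia from 52.2% to 69.6% and the median of all genes from 0.0049 to 0.089, and then Csf1 also passed (0.32, limma-trend adjusted p = 0.0077). Csf1 also passed with DESeq2 (adjusted p = 0.040) and with the GC and length correction without the block (limma-trend adjusted p = 0.018). Il7 had the fewest counts of the members, 9 to 28 per sample.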
